A study of Mus musculus with 12 samples.

Results

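The genes described here make cholesterol, or set how much of it is made through the transcription factor SREBP2. They were chosen by name from the known pathway, with earlier results of these data known. The list held 28 genes in all, and 27 of them matched an identifier in the files. Hmgcs1, which encodes the synthase of 3-hydroxy-3-methylglutaryl-CoA, did not match and was not analysed here. All 27 passed the filter on low counts, among 16163 genes tested of 37991 counted. Poly(A) RNA had been sequenced from mouse embryonic fibroblasts on day 6 of adipocyte differentiation, in 12 libraries of 4 genotypes with 3 libraries each.

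All cells came from male embryos of the same embryonic day, on a C57BL/6N background, and had been kept for 4 passages. Confluent cells had received 3-isobutyl-1-methylxanthine, dexamethasone, rosiglitazone and insulin for 48 h, and insulin alone afterwards. By their labels the embryos lacked both Gadd45a and Ing1 (DKO), lacked Ing1 (Ing1-KO), lacked Gadd45a (Gadd45a-KO) or were wild type (WT). Mutations were carried by the whole embryo, from intercrosses of 2 mutant mouse lines, so no cell type was targeted. The Gadd45a protein is induced by stress and takes part in DNA repair and active demethylation; the Ing1 protein reads methylated histone H3. Whether replicates are separate embryos or cultures is not stated in the labels, so each p-value reflects only how these libraries varied, which may be technical.

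Animal cells build cholesterol from acetyl-CoA. The mevalonate steps make isoprenoid units, which are joined into squalene, closed into lanosterol and trimmed to cholesterol. When sterols in the endoplasmic reticulum run low, SCAP carries the SREBP2 precursor to the Golgi, where proteases release its active part; INSIG proteins hold SCAP back when sterols are plentiful. Active SREBP2 binds sterol regulatory elements, together with the factor NF-Y at CCAAT boxes, upstream of most genes of the pathway and of its own gene. In adipocytes cholesterol is stored in the lipid droplet, and the related factor SREBP1 drives fatty acid synthesis.

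Promoters of 4 members are shown. Srebf2 (ENSMUSG00000022463) encodes SREBP2 itself. Insig1 (ENSMUSG00000045294) had the lowest fold change of the control genes in DKO against WT. Lss (ENSMUSG00000033105) had the lowest of the enzymes from mevalonate kinase to cholesterol. Ggps1 (ENSMUSG00000021302) is a branch enzyme that went the other way, by a small rise whose call held in 2 of 12 fits with 1 library left out. Each promoter is the 250 bases upstream of the gene's start in RefSeq, build GRCm38.p6, at chr15:82147019-82147268 (plus strand) for Srebf2, chr5:28071162-28071411 (plus) for Insig1, chr10:76531355-76531604 (plus) for Lss and chr13:14063489-14063738 (minus) for Ggps1. Capitals mark matches on either strand to TCACNCCA, the core of a sterol regulatory element, or to CCAAT, which reads ATTGG on the other strand.
Srebf2: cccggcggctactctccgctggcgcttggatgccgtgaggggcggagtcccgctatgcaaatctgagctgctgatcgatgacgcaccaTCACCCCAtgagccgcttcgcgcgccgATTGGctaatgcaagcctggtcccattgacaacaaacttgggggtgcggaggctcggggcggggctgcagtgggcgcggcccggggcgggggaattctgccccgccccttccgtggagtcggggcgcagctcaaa
Insig1: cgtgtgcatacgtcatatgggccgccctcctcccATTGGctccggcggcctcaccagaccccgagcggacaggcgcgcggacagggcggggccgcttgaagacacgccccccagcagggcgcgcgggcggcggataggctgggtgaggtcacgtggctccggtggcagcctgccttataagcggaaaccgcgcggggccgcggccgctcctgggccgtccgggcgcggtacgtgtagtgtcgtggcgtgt
Lss: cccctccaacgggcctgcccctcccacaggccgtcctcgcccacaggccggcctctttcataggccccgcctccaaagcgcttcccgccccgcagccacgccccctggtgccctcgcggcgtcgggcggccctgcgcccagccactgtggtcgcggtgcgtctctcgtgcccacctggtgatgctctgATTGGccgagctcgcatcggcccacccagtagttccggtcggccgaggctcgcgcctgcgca
Ggps1: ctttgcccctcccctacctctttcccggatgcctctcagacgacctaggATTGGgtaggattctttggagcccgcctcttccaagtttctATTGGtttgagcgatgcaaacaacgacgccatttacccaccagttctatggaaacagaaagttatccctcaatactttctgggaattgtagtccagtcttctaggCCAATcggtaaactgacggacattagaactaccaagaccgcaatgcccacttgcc
In Srebf2 the sterol-element match and a CCAAT box lie apart and do not overlap. Insig1 and Lss carry 1 CCAAT box each and Ggps1 carries 3, and none of these 3 windows matches TCACNCCA. The RefSeq table held 28 windows of 22 members, since a gene can have several starts. Of these 28 windows, 3 (of Hmgcs1, Msmo1 and Srebf2) matched TCACNCCA, against 3.67% of all 32851 windows. CCAAT was found in 19 of the 28, against 33.8% of all windows. A match describes letters only.

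Before the pathway, the labels and the state of the cultures were checked. Ing1 followed its label, at 0.915 ± 0.234 CPM (CPM are reads of a gene scaled to the library's gene reads; SD, n = 3) in the libraries labelled DKO and 1.22 ± 0.326 CPM in Ing1-KO, against 46.0 ± 1.47 CPM in Gadd45a-KO and 45.4 ± 2.26 CPM in WT. Gadd45a went against its label, at 140 ± 1.90 CPM in the libraries labelled DKO and 143 ± 1.75 CPM in those labelled Gadd45a-KO; Ing1-KO held 15.6 ± 2.55 CPM and WT held 15.8 ± 1.82 CPM. A sum over the whole gene cannot tell which of its exons gave the reads, so every direction drawn for DKO and Gadd45a-KO below is that of the libraries so labelled. The 18 adipocyte markers, which include the adipokine Adipoq and the lipid carrier Fabp4, summed to between 477 and 557 CPM in DKO, to 4011, 1369 and 484 CPM in the Ing1-KO libraries, to between 1518 and 2041 CPM in Gadd45a-KO, and to 4564, 2236 and 4167 CPM in the WT libraries. The 16 macrophage markers summed to between 8074 and 8588 CPM in DKO, 4323 and 5110 CPM in Ing1-KO, 2280 and 6727 CPM in Gadd45a-KO and 4321 and 4971 CPM in WT. Thus the 3 Ing1-KO libraries stood apart from each other in adipocyte markers, as did WT replicate 2 from the other WT libraries, and Gadd45a-KO replicate 1 had the fewest macrophage marker reads. No marker of either list was at 0 in any library, except the adipokine gene Retn in DKO replicate 3. The 10 fibroblast markers summed to between 47688 and 52371 CPM in DKO, 54153 and 56280 CPM in Ing1-KO, 53257 and 54651 CPM in Gadd45a-KO and 54463 and 58987 CPM in WT. Every DKO sum thus lay below every WT sum, and 1 of the 10, Pdgfra, a receptor of mesenchymal cells singled out after its values were seen, fell in DKO against WT (-0.77 ± 0.14, adjusted p = 0.0119). The 10 proliferation markers summed to between 729 and 821 CPM in DKO, 535 and 641 CPM in Ing1-KO, 633 and 829 CPM in Gadd45a-KO and 689 and 791 CPM in WT. Every Ing1-KO sum thus lay below every WT sum. In Ing1-KO against WT all 10 had negative log2 fold changes and 1 fell, where 1.92% of all genes fell. In DKO against Ing1-KO 4 rose, where 5.91% of all genes rose. Their part in the results below was not tested. Gene reads per library ran from 42891627 to 52860419.

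The libraries labelled DKO held less transcript for most of the pathway than WT libraries did. Against WT, 16 of 27 measured members fell and 2 rose, where 7.09% of all tested genes fell and 5.94% rose (edgeR's quasi-likelihood test over all 12 libraries, Benjamini-Hochberg adjusted p under 0.05 over all genes, here called passing). The members' median log2 fold change was -0.40, and that of all genes was -0.00. Of the 16 measured enzymes from mevalonate kinase to cholesterol, 13 fell and none rose, with a median of -0.47. Their summed level was 741, 723 and 701 CPM in DKO, against 1050, 910 and 980 CPM in WT. The highest DKO library thus lay below the lowest WT library. In bulk samples, fewer cells of a type and less RNA per cell cannot be told apart. In DKO against WT, all 18 adipocyte markers had negative log2 fold changes and all 16 macrophage markers had positive ones. Of 10 fibroblast markers, 9 were negative and 1 fell. The part of these cell types in the result was not tested. Without WT replicate 1 the count of members called was 5, without WT replicate 3 it was 11 and without DKO replicate 1 it was 8; without WT replicate 2 it was 17.

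**Figure D1:**
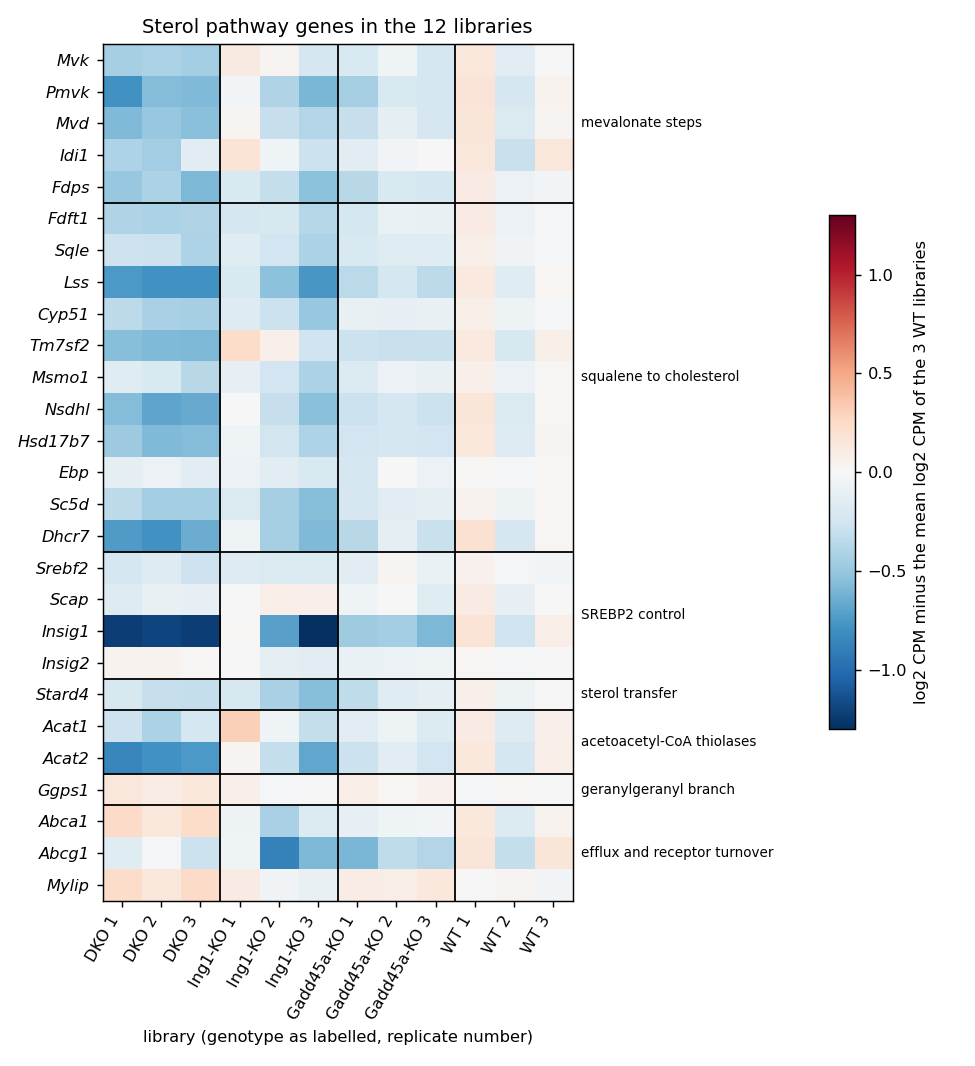
Level of each measured member in each of the 12 libraries, as log2 CPM minus the gene's mean log2 CPM in the 3 WT libraries (colour scale); columns are libraries ordered DKO, Ing1-KO, Gadd45a-KO and WT, and members are grouped by role. Most enzyme genes are blue in the 3 DKO libraries and in Ing1-KO replicate 3, with Insig1 darkest, and Ggps1 and Mylip are pale red in DKO.

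Of the mevalonate steps, 5 were measured and 4 fell in DKO. Mvk, mevalonate kinase, stood at 21.6, 21.9 and 21.4 CPM in DKO, against 32.1, 26.3 and 29.0 CPM in WT, which is -0.43 ± 0.09 (SE) as a log2 fold change (edgeR, adjusted p = 0.0152). Pmvk, the kinase of the next phosphorylation, stood at 12.3, 14.4 and 14.3 CPM in DKO, against 23.8, 18.3 and 22.0 CPM in WT (-0.64 ± 0.14, adjusted p = 0.0179). Mvd, the decarboxylase that makes isopentenyl diphosphate, stood at 21.9, 23.2 and 22.4 CPM in DKO, against 36.5, 28.6 and 33.4 CPM in WT (-0.55 ± 0.11, adjusted p = 0.0149). In all 3 genes every DKO library lay below every WT library. Fdps, which joins isoprenoid units into farnesyl diphosphate, stood at 34.7, 36.6 and 32.5 CPM in DKO, against 52.6, 46.4 and 47.7 CPM in WT (-0.50 ± 0.08, adjusted p = 0.00817). Idi1, the isopentenyl diphosphate isomerase, was the exception, at 3.52, 3.40 and 4.21 CPM in DKO, against 5.14, 3.79 and 5.14 CPM in WT (-0.34 ± 0.15, adjusted p = 0.166). It had the fewest reads of these 16 enzymes, and its groups overlapped.

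From squalene to cholesterol, 9 of 11 enzymes fell in DKO. Fdft1, squalene synthase and the step that commits farnesyl diphosphate to sterols, stood at 49.0, 48.5 and 49.2 CPM in DKO, against 69.2, 61.1 and 63.1 CPM in WT (-0.40 ± 0.06, adjusted p = 0.00505). Sqle, the squalene epoxidase, stood at 104, 103 and 94.7 CPM in DKO, against 133, 121 and 123 CPM in WT (-0.32 ± 0.06, adjusted p = 0.0131). Lss, which closes the ring to lanosterol and whose promoter is printed above, stood at 49.6, 48.3 and 48.3 CPM in DKO, against 91.0, 74.9 and 85.0 CPM in WT. Its log2 fold change, -0.78 ± 0.12 (adjusted p = 0.00584), was the lowest of the 16 enzymes from mevalonate kinase to cholesterol, and DKO stood at 58.3% of WT.

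The lanosterol-trimming enzymes shared this direction with different sizes. Cyp51, the lanosterol demethylase, stood at 152, 144 and 144 CPM in DKO, against 205, 185 and 192 CPM in WT (-0.40 ± 0.07, adjusted p = 0.00856). Nsdhl, a decarboxylating sterol dehydrogenase, stood at 32.2, 29.5 and 30.1 CPM in DKO, against 53.0, 41.7 and 48.2 CPM in WT (-0.64 ± 0.12, adjusted p = 0.0121). Hsd17b7, the ketoreductase that acts beside it, stood at 55.7, 51.9 and 52.4 CPM in DKO, against 85.1, 68.8 and 79.1 CPM in WT (-0.54 ± 0.09, adjusted p = 0.00668). The groups did not overlap in any of these genes. Tm7sf2, a sterol reductase, stood at 6.41, 6.32 and 6.27 CPM in DKO, against 10.3, 8.13 and 9.95 CPM in WT (-0.58 ± 0.12, adjusted p = 0.0152). Sc5d, the lathosterol desaturase, stood at 55.7, 51.9 and 52.0 CPM in DKO, against 72.9, 67.3 and 71.6 CPM in WT (-0.41 ± 0.08, adjusted p = 0.011). Dhcr7, whose enzyme makes cholesterol from 7-dehydrocholesterol, stood at 23.4, 22.6 and 24.8 CPM in DKO, against 44.4, 33.4 and 39.5 CPM in WT (-0.73 ± 0.14, adjusted p = 0.0112). These too separated completely. Msmo1, the methylsterol oxidase, missed the threshold at 93.3, 91.1 and 81.1 CPM in DKO, against 109, 98.9 and 105 CPM in WT (-0.24 ± 0.08, adjusted p = 0.062), although the groups did not overlap. Ebp, the sterol isomerase, also missed it, at 24.7, 25.6 and 24.2 CPM in DKO, against 27.1, 26.3 and 27.1 CPM in WT (-0.12 ± 0.06, adjusted p = 0.2). Every DKO library lay below every WT library in 15 of 16 enzymes, where 19.7% of all genes showed this.

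**Figure D2:**
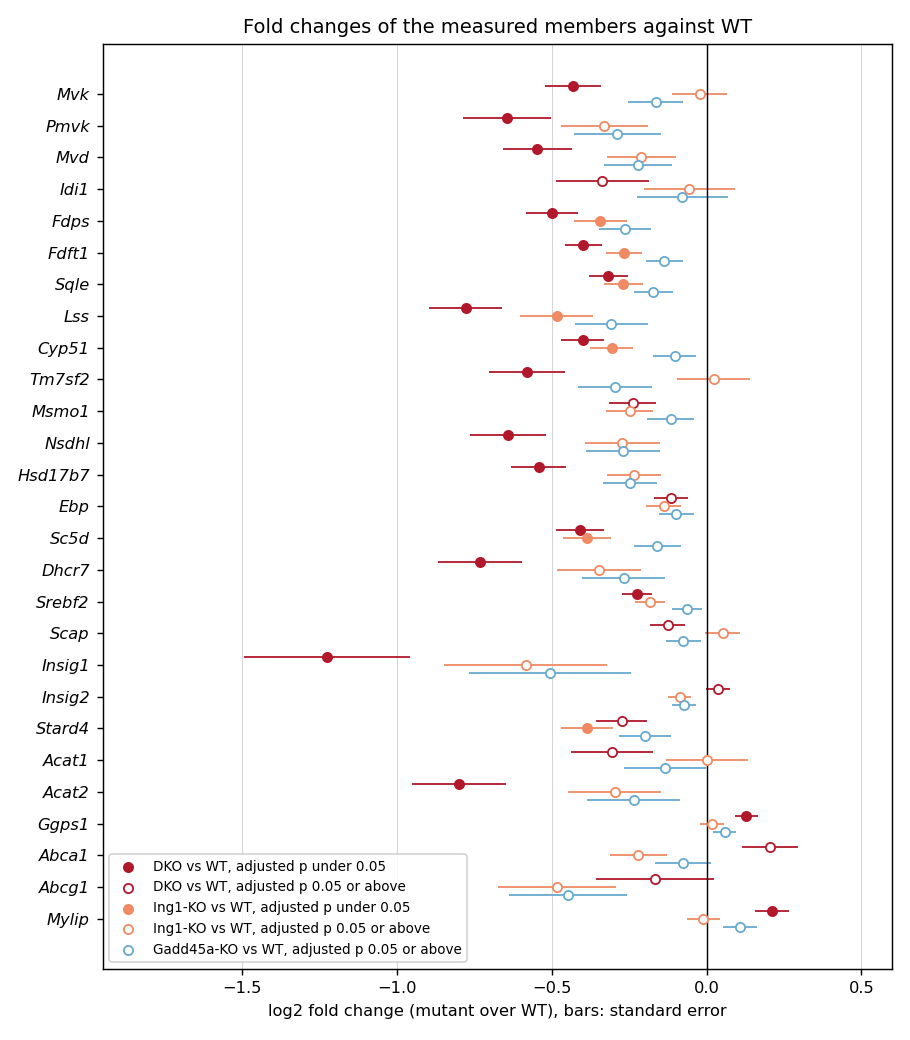
Log2 fold change of each measured member in DKO, Ing1-KO and Gadd45a-KO over WT (horizontal axis; bars are SE), with filled points where the adjusted p was under 0.05. All 16 enzymes have negative DKO points, from -0.78 for Lss to -0.12 for Ebp, and Insig1 lies farthest left at -1.23.

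Among the control genes, 2 of 4 fell in DKO. Srebf2, whose product is the factor itself, stood at 147, 154 and 143 CPM in DKO, against 179, 171 and 169 CPM in WT (-0.22 ± 0.05, adjusted p = 0.0166), a small difference with no overlap. Insig1, the SCAP anchor that is itself a target of SREBP2 in mouse and human cells, stood at 64.3, 65.6 and 64.4 CPM in DKO, against 170, 125 and 159 CPM in WT. Its log2 fold change was -1.23 ± 0.27 (adjusted p = 0.0187), the lowest of all members, and DKO stood at 42.8% of WT. For both genes every DKO library lay below every WT library. Insig2, the second anchor, stood at 52.8, 53.1 and 52.1 CPM in DKO, against 52.1, 50.9 and 51.1 CPM in WT (0.04 ± 0.04, adjusted p = 0.586). Scap, the escort, stood at 50.5, 53.1 and 52.7 CPM in DKO, against 61.1, 52.7 and 56.7 CPM in WT (-0.13 ± 0.06, adjusted p = 0.172). For Insig2 and Scap no difference was called. Insig1 varied between libraries of a genotype as well: in Ing1-KO it stood at 152, 92.2 and 59.2 CPM, the same order as the adipocyte marker sums of those libraries, and in Gadd45a-KO at 109, 110 and 100 CPM. Neither single mutant was called for Insig1 (Ing1-KO -0.58 ± 0.26, adjusted p = 0.24; Gadd45a-KO -0.51 ± 0.26, adjusted p = 0.88).

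**Figure D3:**
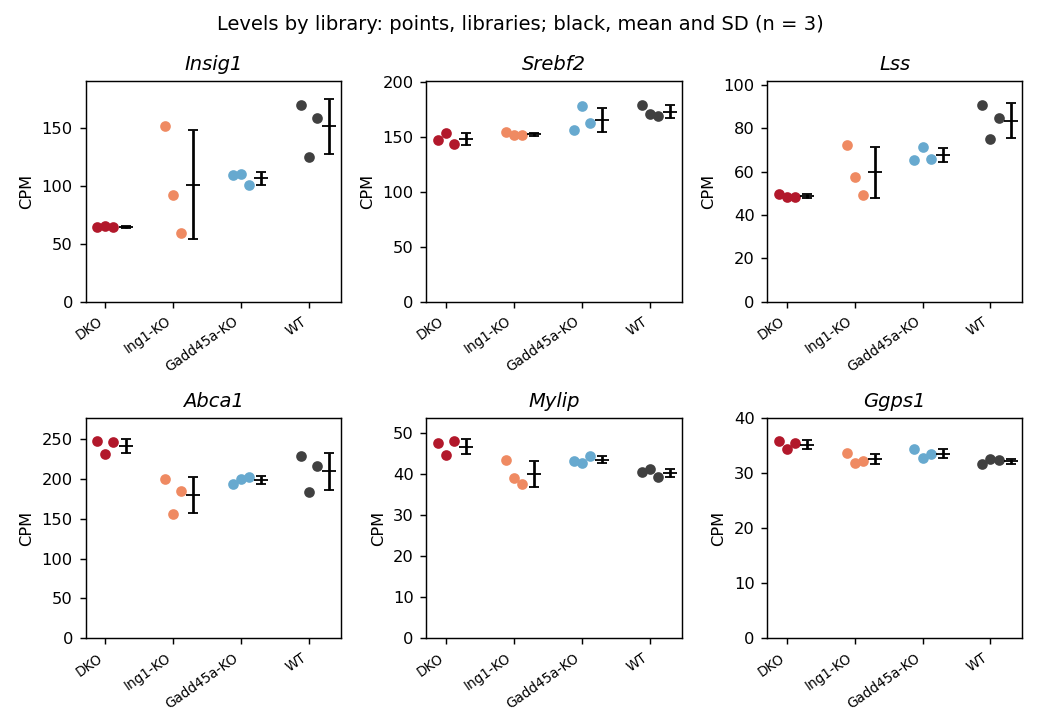
CPM of 6 members in each library (coloured points) with the genotype mean and SD (black, n = 3), genotypes ordered DKO, Ing1-KO, Gadd45a-KO and WT, each axis starting at 0. The DKO points lie close together, between 64.3 and 65.6 CPM for Insig1, while the Ing1-KO points for the same gene run from 59.2 to 152 CPM.

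The remaining members lie at the edges of the pathway. Acat2, the cytosolic thiolase that makes acetoacetyl-CoA for sterol synthesis, fell: it stood at 17.5, 18.3 and 18.9 CPM in DKO, against 34.6, 27.2 and 33.5 CPM in WT (-0.80 ± 0.15, adjusted p = 0.0124). Acat1, the mitochondrial thiolase of ketone and isoleucine metabolism, stood at 61.8, 55.8 and 63.5 CPM in DKO, against 79.9, 66.0 and 77.7 CPM in WT (-0.30 ± 0.13, adjusted p = 0.16). Stard4, which carries cholesterol between membranes, stood at 53.0, 49.8 and 49.3 CPM in DKO, against 64.3, 58.6 and 61.0 CPM in WT (-0.27 ± 0.08, adjusted p = 0.0524). Of these 3 genes Acat2 alone was called, although none of the 3 overlapped between the groups. Ggps1, which turns farnesyl diphosphate towards protein prenylation instead of sterols, rose: it stood at 35.7, 34.3 and 35.5 CPM in DKO, against 31.6, 32.5 and 32.3 CPM in WT (0.13 ± 0.04, adjusted p = 0.0479). That call held in 2 of 12 fits with 1 library left out. Mylip, a ubiquitin ligase that marks lipoprotein receptors for degradation and answers to the sterol sensor LXR, rose as well, to 47.4, 44.4 and 47.9 CPM in DKO, against 40.4, 41.1 and 39.1 CPM in WT (0.21 ± 0.05, adjusted p = 0.0288). Abca1, an LXR target that exports cholesterol, stood at 247, 232 and 246 CPM in DKO, against 229, 184 and 216 CPM in WT (0.20 ± 0.09, adjusted p = 0.167). Abcg1, the second exporter, stood at 14.3, 15.6 and 13.2 CPM in DKO, against 17.8, 12.9 and 17.7 CPM in WT (-0.17 ± 0.19, adjusted p = 0.621), and its groups overlapped.

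In Ing1-KO libraries 7 members fell against WT and none rose, where 4.32% of all genes were called, 1.92% lower and 2.40% higher; the members' median log2 fold change was -0.25, against 0.00 for all genes. The 6 enzymes among them run from Fdps to Sc5d. Sc5d stood at 61.7, 52.2 and 48.2 CPM in Ing1-KO, against 72.9, 67.3 and 71.6 CPM in WT (-0.39 ± 0.08, adjusted p = 0.0244). Cyp51 stood at 172, 160 and 138 CPM in Ing1-KO, against 205, 185 and 192 CPM in WT (-0.31 ± 0.07, adjusted p = 0.0348). Fdft1 stood at 55.3, 55.8 and 49.6 CPM in Ing1-KO, against 69.2, 61.1 and 63.1 CPM in WT (-0.27 ± 0.06, adjusted p = 0.0343). In all 3 every Ing1-KO library lay below every WT library. This held for 8 of 16 enzymes and 10 of 27 members, where 12.5% of all genes showed it. Sqle differed by -0.27 ± 0.06 (adjusted p = 0.0394), Fdps by -0.34 ± 0.08 (adjusted p = 0.0461) and Lss by -0.48 ± 0.12 (adjusted p = 0.0468). Stard4 fell with them, at 53.1, 45.9 and 41.7 CPM in Ing1-KO, against 64.3, 58.6 and 61.0 CPM in WT (-0.39 ± 0.08, adjusted p = 0.0304). Its Ing1-KO and WT libraries did not overlap. Mvk and Tm7sf2, both called in DKO, differed from WT by -0.02 ± 0.09 and 0.02 ± 0.12 here. Srebf2 stood at 154, 152 and 152 CPM in Ing1-KO, against 179, 171 and 169 CPM in WT (-0.18 ± 0.05, adjusted p = 0.0586).

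The Ing1-KO counts rest on libraries that differ among themselves. Enzymes summed to 900, 803 and 708 CPM in Ing1-KO replicates 1, 2 and 3, beside adipocyte marker sums of 4011, 1369 and 484 CPM. Replicate 3 was the lowest of the genotype in 16 of 16 enzymes, where it was lowest in 37.5% of all genes. WT replicate 2, the WT library with the fewest adipocyte marker reads, was likewise the lowest WT library in 16 of 16 enzymes and WT replicate 1 the highest in 16 of 16, against 39.1% and 34.5% of all genes. Gadd45a-KO and DKO did not share this order. Gadd45a-KO replicate 1 had the lowest enzyme sum, 838 CPM, but replicate 3 the lowest adipocyte sum, 1518 CPM. DKO replicate 3 had the lowest enzyme sum, 701 CPM, but the highest adipocyte sum, 557 CPM. Without Ing1-KO replicate 3 the count of members called was 3, without Ing1-KO replicate 1 it was 15, and without Ing1-KO replicate 2 or any single WT library it was 0. Leaving out Gadd45a-KO replicate 3 or DKO replicate 1 gave 2, and leaving out DKO replicate 2 gave 4. Over all genes, 311 were called lower and 388 higher with all 12 libraries. Without Ing1-KO replicate 3 these counts were 505 and 698, and without Ing1-KO replicate 1 they were 539 and 333. Without Ing1-KO replicate 2 they were 38 and 63. Without a WT library they ran from 68 to 82 lower and from 76 to 101 higher. No call of a member in this comparison held in all 12 fits with 1 library left out.

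**Figure D4:**
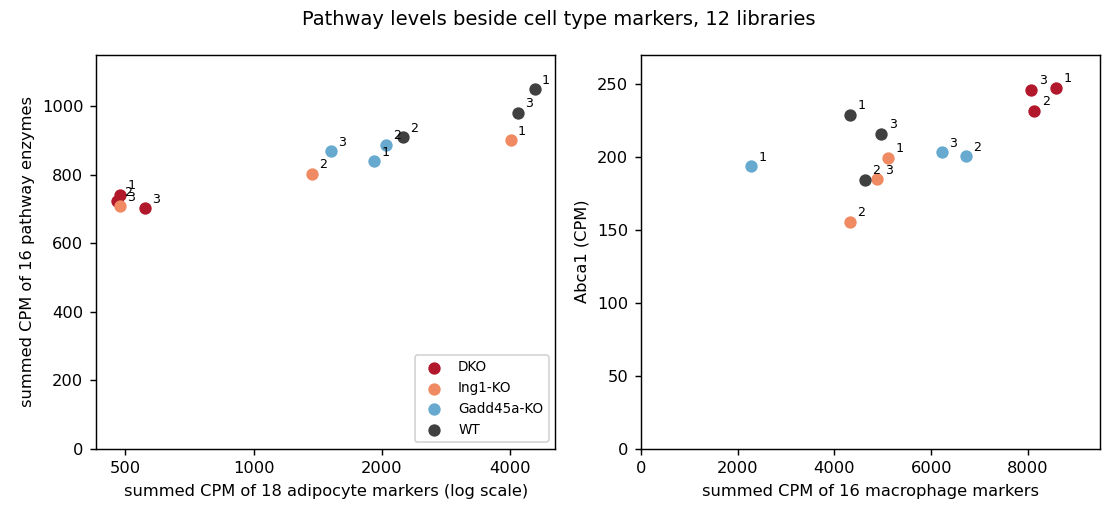
Left, the summed CPM of the 16 measured enzymes against the summed CPM of 18 adipocyte markers (log axis) in each of 12 libraries; right, the CPM of Abca1 against the summed CPM of 16 macrophage markers; numbers are replicates. Ing1-KO replicate 3 lies among the DKO libraries on the left, at 708 CPM of enzymes and 484 CPM of markers, and on the right the DKO libraries lie at 8074 CPM of macrophage markers or above.

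In the libraries labelled Gadd45a-KO no member was called against WT, where 0.0124% of all genes were called in either direction, 0.00619% lower and 0.00619% higher. Of the 27, 9 had an unadjusted p under 0.05 by edgeR, where 5.48% of all genes did, and DESeq2 and limma-voom also called 0. Negative values were found for 25 of 27 members, with a median log2 fold change of -0.16 against -0.00 for all genes, and all 16 enzymes were negative. Every Gadd45a-KO library lay below every WT library in 13 members, where 7.61% of genes did so, and above in 2, where 4.60% did. Lss, for example, stood at 65.5, 71.2 and 66.1 CPM in Gadd45a-KO, against 91.0, 74.9 and 85.0 CPM in WT (-0.31 ± 0.12, adjusted p = 0.88). Summed enzymes were 838, 887 and 869 CPM in Gadd45a-KO, against 1050, 910 and 980 CPM in WT. Adipocyte markers were lower here too, as given above, and their part in these values was not tested. DKO, Ing1-KO and Gadd45a-KO were all set against the same 3 WT libraries.

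Over the 4 genotypes, DKO had the lowest mean in 14 of 16 enzymes and WT the highest in 15 of 16. The enzyme sum averaged 722 ± 19.8 CPM in DKO, 804 ± 96.3 CPM in Ing1-KO, 865 ± 24.5 CPM in Gadd45a-KO and 980 ± 70.0 CPM in WT (SD, n = 3 each). The Ing1-KO range overlapped those of its neighbours in this order. The highest Gadd45a-KO library, at 887 CPM, lay just below the lowest WT library, at 910 CPM.

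Against Gadd45a-KO no member was called in DKO, where 1.26% of all genes were called in either direction, 0.594% lower and 0.662% higher. By edgeR 18 of 27 members had an unadjusted p under 0.05, where 3236 of all 16163 genes did. DESeq2 called 8 members, where it called 536 of all genes lower and 710 higher. By limma-voom 0 were called, where 88 of all genes were lower and 111 higher. Fdft1 was nearest to the threshold, at 49.0, 48.5 and 49.2 CPM in DKO, against 55.1, 60.6 and 60.2 CPM in Gadd45a-KO (-0.26 ± 0.06, adjusted p = 0.0569). Every DKO library lay below every Gadd45a-KO library in 13 of 16 enzymes, where 13.6% of genes did so. Without Ing1-KO replicate 1, which enters only the shared estimate of spread, 8 members were called. Without Ing1-KO replicate 3 there were 4, and without Gadd45a-KO replicate 1 there was 1. Over all genes, 96 were called lower and 107 higher with all 12 libraries. Without Ing1-KO replicate 1 these counts were 297 and 204, and without Ing1-KO replicate 3 they were 318 and 272. Without Gadd45a-KO replicate 1 they were 102 and 235.

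Against Ing1-KO, 3 members fell in DKO and 2 rose, where 5.76% of all genes fell and 5.91% rose. Whether these counts differ from those shares was not tested. Tm7sf2 stood at 6.41, 6.32 and 6.27 CPM in DKO, against 11.1, 9.88 and 7.89 CPM in Ing1-KO (-0.60 ± 0.12, adjusted p = 0.0205). Mvk stood at 21.6, 21.9 and 21.4 CPM in DKO, against 31.4, 29.7 and 25.0 CPM in Ing1-KO (-0.41 ± 0.09, adjusted p = 0.0249). Hsd17b7 stood at 55.7, 51.9 and 52.4 CPM in DKO, against 74.2, 65.7 and 58.4 CPM in Ing1-KO (-0.31 ± 0.09, adjusted p = 0.0454). In each of these 3 genes the lowest Ing1-KO value was that of replicate 3. The call of Hsd17b7 held in 4 of 12 fits with 1 library left out. Abca1 rose to 247, 232 and 246 CPM in DKO, against 199, 156 and 185 CPM in Ing1-KO (0.42 ± 0.09, adjusted p = 0.0241). Mylip rose to 47.4, 44.4 and 47.9 CPM in DKO, against 43.4, 38.9 and 37.5 CPM in Ing1-KO (0.22 ± 0.05, adjusted p = 0.0303). Macrophages express Abca1, and the 16 macrophage markers summed to at least 8074 CPM in every DKO library, against at most 5110 CPM in Ing1-KO; the part of these cells in the values was not tested. Without Ing1-KO replicate 3 the count of members called was 16, without Ing1-KO replicate 1 or DKO replicate 3 it was 3, and without Ing1-KO replicate 2, DKO replicate 1 or DKO replicate 2 it was 0.

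The interaction asks whether the DKO libraries depart from the sum of both single differences from WT on the log2 scale. No member passed by edgeR, where 0% of all genes did; 4 of 27 had an unadjusted p under 0.05, where 13.6% of all genes did. The lowest adjusted p belonged to Abca1, with an interaction of 0.50 ± 0.13 (adjusted p = 0.227). DESeq2, which called 95 of all genes lower and 73 higher, called that gene alone among members (adjusted p = 0.0307), and limma-voom called 0. Insig2 followed, at 0.20 ± 0.05 (adjusted p = 0.252), then Abcg1 at 0.76 ± 0.27 (adjusted p = 0.298) and Stard4 at 0.31 ± 0.12 (adjusted p = 0.305). These 4 were positive, but their number is close to the share of all genes and is given as a description. Of the 27 members, 15 were positive and 12 negative, and the sign of their median changed with the scaling. A p that misses the threshold does not show that the differences add up.

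Genes around the pathway were read in 6 lists. In the branch towards dolichol, ubiquinone and prenylated proteins, 1 of 11 genes fell in DKO against WT and none rose, beside the 7.09% of all genes that fell and the 5.94% that rose. Counts of 1 in this list and in the next lists are close to these shares and are given as descriptions. That gene was Nus1, a subunit of the prenyltransferase that makes dolichol, at 136, 134 and 135 CPM in DKO, against 182, 158 and 173 CPM in WT (-0.34 ± 0.07, adjusted p = 0.0161). Among genes of SREBP processing, 1 of 8 fell and none rose. Srebf1, which encodes SREBP1, stood at 78.3, 80.5 and 75.0 CPM in DKO, against 135, 99.7 and 120 CPM in WT (-0.60 ± 0.14, adjusted p = 0.0205). Against Ing1-KO the proteases that release SREBPs moved in opposite directions in DKO, Mbtps1 by -0.11 ± 0.03 (adjusted p = 0.0442) and Mbtps2 by 0.16 ± 0.04 (adjusted p = 0.045); either call held in 2 of 12 fits with 1 library left out, and neither held without the filter, with only the groups compared or with the replicate block. In redox partners of the sterol enzymes, 1 of 6 fell: Cyb5b, a cytochrome b5, stood at 168, 163 and 162 CPM in DKO, against 247, 212 and 251 CPM in WT (-0.53 ± 0.08, adjusted p = 0.00633). It also fell in Ing1-KO (-0.36 ± 0.08, adjusted p = 0.0383), a call that held in 4 of 12 fits with 1 library left out.

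Of 12 uptake and trafficking genes, 1 fell and 2 rose in DKO against WT, beside 7.09% and 5.94% of all genes. Scarb1, the receptor that takes cholesterol from high-density lipoprotein, stood at 49.5, 54.4 and 51.4 CPM in DKO, against 111, 77.1 and 98.4 CPM in WT (-0.88 ± 0.17, adjusted p = 0.0126). Lipa, the lysosomal acid lipase, rose to 260, 255 and 257 CPM in DKO, against 180, 183 and 198 CPM in WT (0.46 ± 0.06, adjusted p = 0.0028). Npc1, which moves cholesterol out of the lysosome, rose to 120, 122 and 120 CPM in DKO, against 98.9, 102 and 102 CPM in WT (0.25 ± 0.06, adjusted p = 0.0172). Both lysosomal genes were also higher in DKO than in Ing1-KO (Lipa 0.34 ± 0.06, adjusted p = 0.0151; Npc1 0.19 ± 0.06, adjusted p = 0.0469, held in 3 of 12 fits with 1 library left out), and Lipa was higher than in Gadd45a-KO (0.36 ± 0.06, adjusted p = 0.0239).

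Of 11 genes of LXR, oxysterols and cholesteryl esters, 2 fell and 4 rose in DKO against WT, beside 7.09% and 5.94% of all genes. Lpcat3, a phospholipid remodelling enzyme under LXR control, stood at 46.4, 45.2 and 46.9 CPM in DKO, against 77.3, 62.0 and 71.9 CPM in WT (-0.61 ± 0.15, adjusted p = 0.0262). Nceh1, a cholesteryl ester hydrolase of macrophages, rose to 37.2, 33.0 and 37.2 CPM in DKO, against 21.3, 20.2 and 22.5 CPM in WT (0.75 ± 0.19, adjusted p = 0.0293). Soat1, which esterifies cholesterol for storage, rose to 142, 150 and 131 CPM in DKO, against 109, 124 and 119 CPM in WT (0.26 ± 0.07, adjusted p = 0.0318). None of the 3 overlapped between the groups. Against Ing1-KO, Soat1 was higher in DKO by 0.41 ± 0.07 (adjusted p = 0.0144), and Apoe, a cholesterol carrier secreted by macrophages, stood at 1073, 1135 and 977 CPM in DKO, against 270, 282 and 619 CPM in Ing1-KO (1.44 ± 0.41, adjusted p = 0.0499). The call of Apoe held in 2 of 12 fits with 1 library left out and was lost with upper-quartile factors, without the filter, with only the groups compared and in the legacy fit. The macrophage marker sums given above were highest in the same DKO libraries; their part was not tested. In Ing1-KO, Ch25h, which makes 25-hydroxycholesterol, fell against WT (-0.53 ± 0.13, adjusted p = 0.0441). The call of Ch25h held in 4 of 12 fits with 1 library left out and was lost without the filter and with limma-voom.

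The fatty acid arm, under SREBP1, was lower in DKO as well. Of its 11 genes, 10 fell in DKO against WT (7.09% of all genes did), none rose, and the median was -0.67 on the log2 scale. Scd1, the stearoyl-CoA desaturase abundant in fat, stood at 156, 136 and 198 CPM in DKO, against 3266, 1750 and 3068 CPM in WT (-4.05 ± 0.68, adjusted p = 0.00885). Scd2, the desaturase more widely expressed, stood at 753, 710 and 771 CPM in DKO, against 1294, 1094 and 1158 CPM in WT (-0.67 ± 0.09, adjusted p = 0.00368). Acaca, acetyl-CoA carboxylase, stood at 84.1, 85.3 and 87.1 CPM in DKO, against 223, 150 and 205 CPM in WT (-1.17 ± 0.20, adjusted p = 0.00885). Every DKO library lay below every WT library in the 3 genes. Adipocytes express these genes strongly, and the adipocyte marker sums given above were lower in every DKO library than in any WT library; their part in the result was not tested. Scd2 also fell in Ing1-KO against WT (-0.40 ± 0.09, adjusted p = 0.0374), as did Fads1, a fatty acid desaturase (-0.27 ± 0.07, adjusted p = 0.0467). These calls held in 5 and 3 of 12 fits with 1 library left out. Against Gadd45a-KO, Scd2 was lower in DKO by -0.46 ± 0.09 (adjusted p = 0.0426), a call that held in 4 of 12 such fits. Against Ing1-KO, Scd1 and Elovl6, an elongase, were lower in DKO (-3.00 ± 0.65, adjusted p = 0.0258, and -0.35 ± 0.10, adjusted p = 0.0446). The calls of Scd1 and Elovl6 held in 8 and 5 of 12 such fits. Summed, the arm stood at between 1796 and 1888 CPM in DKO, 2030 and 5229 CPM in Ing1-KO, 3336 and 3730 CPM in Gadd45a-KO and 4156 and 6262 CPM in WT. The difference between both arms was not tested.

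Levels can be compared between genes only per length of transcript. In RPKM, with exon lengths from GENCODE M21, Insig1 and Cyp51 had the highest levels of the 27 members in WT libraries when all exons set the length, at 48.9 ± 7.61 and 43.8 ± 2.30 RPKM (SD, n = 3). Their ranges overlapped. Srebf2 came next by that length, at 24.1 ± 0.78, apart from Cyp51. With the principal transcript as the length, Msmo1 stood at 51.1 ± 2.56 near Cyp51, Sqle at 45.5 ± 2.24 in place of 22.6 and Fdps at 35.4 ± 2.36 in place of 11.6, while Insig1 stood at 56.1 ± 8.73 and Cyp51 at 49.2 ± 2.58. Srebf2, Mvk and Dhcr7 had no such length. Insig1 had the highest mean by either length, among genes that had one. By the principal transcript, the means of Msmo1 and Cyp51 lay within its SD, so its first place is not separated. Places below Insig1 depend on the isoform counted. Idi1 was lowest at 1.34 ± 0.22, below Tm7sf2 at 2.15 ± 0.26 and Abcg1 at 2.21 ± 0.39. Tm7sf2 stood at 6.43 when its principal transcript set the length. In DKO libraries Insig1 stood at 20.9 ± 0.24 on this scale, against 48.9 ± 7.61 in WT, and Cyp51 at 33.2 ± 1.11, against 43.8 ± 2.30 in WT. Cyp51 was thus above Insig1 in DKO libraries.

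Exons shared with other genes limit some of these counts. The kit does not mark strand, so reads of genes that overlap on opposite strands cannot be told apart. In GENCODE M21, 18.3% of exon bases of Fdft1 overlap Ctsb, 13.2% of Scap overlap 5830462I19Rik, 5.44% of Ggps1 overlap Arid4b, 3.76% of Cyp51 overlap Akap9 and 3.53% of Lss overlap 4930483K19Rik, all on the other strand. On the same strand, 12.1% of exon bases of Tm7sf2 overlap Vps51. In the same annotation 26.7% of Fdps overlap Gm43738 on the same strand and 9.22% of Idi1 overlap Gm48574 on the other; the counts of these predicted genes were not used here.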

How the data were processed

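Poly(A) RNA in 12 libraries of mouse embryonic fibroblasts, day 6 of adipocyte differentiation, was sequenced from 1 end for 51 cycles, per the labels' protocols. Whole-number read counts for each Ensembl gene, not normalized, are what the authors deposited. FastQC, TopHat2 2.0.9, Bowtie2 2.1.0, HTSeq 0.5.4, DESeq and the builds mm9 and NCBIM37 are named per the submitters' processing notes; the strand setting is not given in the sources used here. Lines naming no gene took 24.2% to 24.8% of each library and were left out. Symbols came from GENCODE M21, matching 32919 of 37991 identifiers; promoters came from RefSeq (GRCm38.p6), and no coordinates were converted.

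Counts were scaled by TMM factors (0.986 to 1.01), filtered with filterByExpr by genotype and tested with edgeR 4.0.16 (R 4.3.3) in 1 quasi-likelihood fit of 4 genotype means; the common biological coefficient of variation was 0.105. The SE is the absolute log2 fold change over the square root of F. P-values were adjusted over all 16163 genes, and genes with an adjusted p under 0.05 were called. Alternatives were other scaling factors (RLE, upper-quartile), other filters (none, or a mean of 5 CPM or more), other tests (DESeq2 1.42.0, limma-voom with limma 3.58.1), the replicate number as a block, only the groups compared, each library left out and an absolute log2 fold change of at least 0.5; edgeR's legacy fit was added after seeing the data. The fit was tested on simulated data. Replicates of each genotype differed by more than sampling noise. The members and lists were chosen with earlier results of these data known. Named are all members, the targeted genes, selected markers, and of each neighbouring list up to 3 called genes per comparison, those with the smallest adjusted p. Precision is limited by 3 libraries per genotype at 42891627 to 52860419 gene reads.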

Additional observations from a re-analysis of the deposited data

How the results depend on the processing

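Counts of members called moved as follows. For Ing1-KO against WT (7) the count was 0 with only the groups compared, where 171 of all genes fell and 217 rose. It was 0 at an absolute log2 fold change of at least 0.5, where 108 fell and 213 rose. With 1 library left out it ran from 0 to 15. Over all genes those fits called 38 to 539 lower and 63 to 698 higher. For DKO against WT (18) the count was 9 at that fold minimum, where 654 of all genes fell and 424 rose. It ran from 5 to 21 with 1 library left out, where 173 to 1472 fell and 121 to 1472 rose. For DKO against Gadd45a-KO (0) the count was 2 with upper-quartile factors, 8 with DESeq2 and 11 with only the groups compared. Of all genes, those settings called 143, 536 and 343 lower and 103, 710 and 81 higher. With 1 library left out the count ran from 0 to 8, where 5 to 318 genes fell and 1 to 272 rose. For DKO against Ing1-KO (5) the count was 10 with DESeq2, where 1378 of all genes fell and 1552 rose. It was 1 at the fold minimum, where 436 fell and 257 rose. With 1 library left out it ran from 0 to 16, where 1 to 1805 genes fell and 1 to 1656 rose. For the interaction (0) the count was 1 with DESeq2, where 95 of all genes were called lower and 73 higher. It was 0 in all 12 fits with 1 library left out. For Gadd45a-KO against WT the count was 0 under every alternative run. Fits of only the groups compared and fits without a library use fewer samples; otherwise the cause was not tested. Members called in DKO against WT in all 12 fits with 1 library left out were Fdps, Fdft1, Lss, Cyp51 and Hsd17b7.

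Of 18 same-numbered pairs of libraries, 4 correlated above 0.1, with r between -0.326 and 0.398. Differently numbered pairs were not set beside them, so whether replicate numbers pair the samples was not settled. With the replicate number as a block the counts of members called were 17 for DKO against WT, 5 for Ing1-KO and 0 for Gadd45a-KO. They were 0 and 5 for DKO against Gadd45a-KO and against Ing1-KO, and 0 for the interaction. Of all genes, the block fit called 1027 lower and 783 higher in DKO against WT, and 286 and 286 in Ing1-KO. For DKO it called 43 and 52 against Gadd45a-KO, and 648 and 739 against Ing1-KO.

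Single genes were followed under the alternatives for all 27 members in each mutant against WT, for 4 members each in DKO against Gadd45a-KO and in the interaction, for 5 in DKO against Ing1-KO, and for the named neighbouring genes; the other members were not followed. Among the genes followed, signs changed for 6 members that were not called, in Ing1-KO against WT. In the interaction the median of the 27 members (0.01) was -0.02 with upper-quartile factors and ran from -0.07 to 0.08 with 1 library left out. Acat1 (0.00098) was -0.00114 with DESeq2, -0.0173 with limma-voom and -0.00689 with the replicate block, and ran from -0.18 to 0.14 with 1 library left out. Mylip (-0.00995) was 0.00222 with upper-quartile factors and ran from -0.074 to 0.033. With 1 library left out, Mvk ran from -0.092 to 0.068, Idi1 from -0.19 to 0.052, Tm7sf2 from -0.094 to 0.15 and Ggps1 from -0.0068 to 0.033. Of the other values of the genes followed, 2238 kept direction and call, 331 lost a call and 47 gained one. The member with the fewest reads, Idi1, had 3.40 CPM in its lowest library, and the part of depth in its values was not tested. What can be said is limited by 3 libraries per genotype, the mixed adipocyte content and the Gadd45a label.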
